A study of Mus musculus with 24 samples.

Results

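The chemokine ligand genes are the genes whose symbol in the platform's probe table starts with Ccl or Cxcl and a number, together with Cx3cl1 and Xcl1. There were 36 of them among 19057 genes with a probe of 1 symbol, read by 56 of the 45281 probes. A ligand was taken as measured in a tissue when a probe was above background (detection p under 0.05) on at least 3 of the tissue's 12 arrays, which held for 28 ligands in lung and 19 in liver, 18 of them shared. Total RNA of lung and liver from female BALB/c mice, 22 weeks old by the labels, was hybridised to 24 bead arrays in 8 groups of 3. The groups were mice injected with 4T1 cells on a high-fat diet (4T1 HFD), 4T1-injected mice on a control diet (4T1 CD), sham-injected mice on the high-fat diet (sham HFD) and sham-injected mice on the control diet (sham CD), each in lung and in liver. The diets were fed for 16 weeks before the injection and up to tissue collection 14 days after it. 4T1 is a mouse mammary carcinoma line of BALB/c origin, placed here in the mammary fat pad, and the labels do not say what the sham injection held. RNA of any 4T1 cells lodged in an organ and RNA of the host's cells are read by the same probes and cannot be told apart.

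Chemokine ligands are small secreted proteins that steer the movement of leukocytes through G protein-coupled receptors on those cells. CC ligands mainly direct monocytes, macrophages, eosinophils and lymphocytes, whereas CXC ligands include the attractants of neutrophils, which act through Cxcr2, and the interferon-inducible attractants of T cells, which act through Cxcr3. Cx3cl1 is a membrane-bound ligand made by endothelium and epithelium, and Xcl1 is made by activated lymphocytes and natural killer cells. In mammary cancer, ligands of tumour and host cells are known for drawing myeloid cells into the blood and distant organs.

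Every member was accounted for. Cxcl11 was measured in liver alone, and Ccl3, Ccl7, Ccl8, Ccl12, Ccl17, Ccl20, Cx3cl1, Cxcl15, Cxcl17 and Xcl1 in lung alone. Ccl1, Ccl2, Ccl22, Ccl26, Ccl28, Cxcl2 and Cxcl3 were not measured in either tissue, so the main monocyte attractant Ccl2 and the neutrophil attractants Cxcl2 and Cxcl3 have no values here. Of the members, 12 lie on chromosome 11 and 10 on chromosome 5 of the mouse, and Ccl5, Ccl9, Ccl6, Ccl3 and Ccl4 are consecutive protein-coding genes on chromosome 11. Ccl21a and Ccl21c, and Ccl27a and its copy Ccl27b, are near-identical, so which copy a probe read is uncertain. Cxcl11 is annotated as a transcribed pseudogene in the reference strain. Its measured probe is annotated to a sequence other than the RefSeq transcript, and its probe for that transcript was above background on no array.

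The marker lists mostly matched the tissue labels. In liver all 8 hepatocyte markers were measured, and Sftpc, Sftpb, Sftpa1, Lamp3 and Slc34a2 of the 8 alveolar markers were not. In lung all 8 alveolar markers were measured, and Alb, Fgb and Tat were not. The other 5 hepatocyte markers were measured in lung. Their summed intensity was 19236 to 25218 (sham CD), 11745 to 19138 (sham HFD), 5782 to 13987 (4T1 CD) and 3173 to 10880 (4T1 HFD). The other 3 alveolar markers were measured in liver, with sums of 10999 to 12729 in sham CD liver. The share of probes above background moved with injection. It was 43% to 44.8% in 4T1 lung and 51% to 52.4% in sham lung, and 40.4% to 41.5% in 4T1 liver and 34% to 36.1% in sham liver. The files name no slide or scan, so array batch and injection cannot be told apart. Levels are given as background-corrected, quantile-normalized log2 intensities, and a change of 1 is a doubling. Levels of different genes were not set against each other, since each probe has its own brightness. Quantile normalization makes every change relative to the other transcripts on the array. When arrays were instead scaled by their medians alone, the median log2 change of all genes was 0.66 (CD) and 0.73 (HFD) for 4T1 over sham in liver, and -0.5 (CD) and -0.48 (HFD) in lung. Among all called genes the share that was higher then became 97.3% (CD) and 98.2% (HFD) in liver, in place of 47.3% and 43.1%, and 12% (CD) and 12.8% (HFD) in lung, in place of 39% and 41.9%. All changes below are therefore relative ones.

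Lung and liver were first compared without 4T1 cells. In sham mice on the control diet, 9 of the 18 ligands measured in both tissues read higher in lung than in liver and 5 lower, where 39.9% of all 10366 genes were higher and 39.9% lower, with all 24 arrays normalized together and tested with limma. The median log2 difference was 0.49 over the ligands and 0 over all genes. The lymphoid-homing ligands Ccl21c and Ccl21a, which bring dendritic cells and naive T cells to lymphatic vessels through Ccr7, showed the widest gaps. Ccl21c averaged 12.09 ± 0.14 in lung and 6.75 ± 0.21 in liver (SD, n = 3 each), a log2 difference of 5.34 ± 0.25 (SE, adjusted p = 1.61e-13). Ccl21a averaged 12.56 ± 0.2 in lung and 8.17 ± 0.32 in liver, a difference of 4.39. The epithelial ligand Cxcl14 (3.57), the T-cell attractant Ccl5 (3.21), the B-cell attractant Cxcl13 (2.77), the myeloid ligand Ccl6 (2.74), the membrane-anchored ligand Cxcl16 (1.52), the eotaxin Ccl11 (1.33) and Ccl4 (0.86) were also higher in lung. The liver probes of Cxcl14 and Ccl6 were above background on 1 of 3 sham CD arrays.

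Of the other 9 ligands, 5 read lower in lung than in liver, and Ccl19, Ccl24, Ccl25 and Ccl27a were not called. The neutrophil attractant Cxcl1 averaged 8.72 ± 0.53 in lung and 11.1 ± 0.54 in liver, a difference of -2.38 ± 0.29 (adjusted p = 3.25e-07). Ccl9, a ligand of Ccr1 on myeloid cells, averaged 10.89 ± 0.29 in lung and 12.41 ± 0.12 in liver, a difference of -1.52 (adjusted p = 6.42e-10). The Cxcr3 ligands Cxcl9 (-1.65) and Cxcl10 (-1.18) and the stromal ligand Cxcl12 (-0.21) were lower in lung in this normalization. The last 3 turned on the scaling. Cxcl10 read 0.46 and Cxcl12 0.06 with median scaling, and 0.10 and 0.12 in the authors' deposited log2 values, and Cxcl9 kept its sign with adjusted p = 0.242 and 0.0908. Under these settings the median difference of all genes was 1.16 and 0.68, and 83.5% and 81.9% of called genes were higher in lung in place of 50%. Cxcl12 also lost its call when liver sham CD replicate 1 (-0.13) or any of the lung sham CD replicates (-0.21 to -0.20) was left out.

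**Figure D1:**
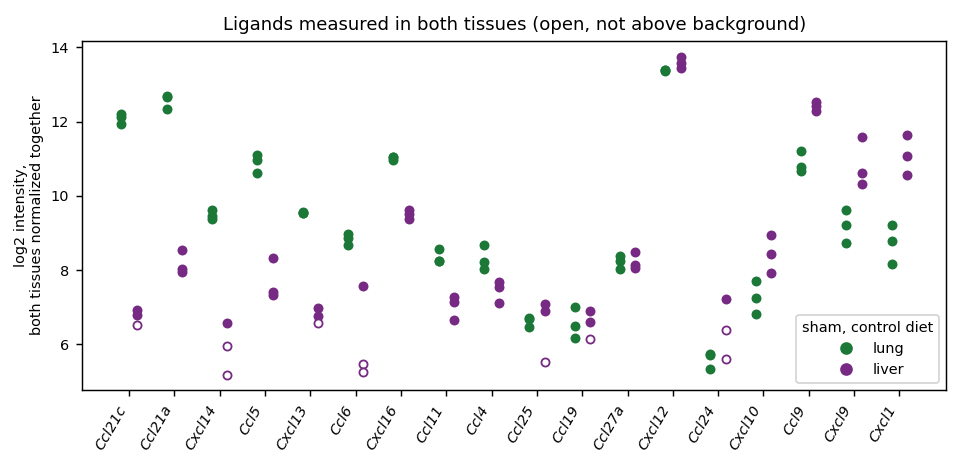
Log2 intensity of each sham CD array for the 18 ligands measured in both tissues, lung (green) left of liver (purple), genes ordered by the difference and open circles not above background. Ccl21c and Ccl21a stand far higher in lung at the left end, and Cxcl1 stands higher in liver at the right end.

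In liver, 4T1 injection went with a higher neutrophil attractant Cxcl1 and higher Cxcl14, Ccl24 and Ccl6 on both diets. Ccl25 was also higher on both diets by its brightest probe, with which its further probes disagree. The interferon-inducible Cxcl10 was lower on the control diet. On the high-fat diet 5 of the 19 measured ligands were higher in 4T1 than in sham liver (26.3%, against 21% of all 10906 genes) and 1 was lower (5.26%, against 27.7%), with limma's adjusted p under 0.05. On the control diet 6 were higher (31.6%, against 20.5%) and 3 lower (15.8%, against 22.8%). The median log2 change of the 19 was 0 on the high-fat and 0.07 on the control diet, where that of all genes was -0.06 and -0.03. The share of higher ligands was near that of all genes on the high-fat diet, and with so few ligands no share was tested against all genes. Changes had the same sign on both diets for 15 of the 19. In bulk RNA, fewer cells of a type and less RNA per cell cannot be told apart. With median scaling the counts were 16 higher and 0 lower on the high-fat diet, and 14 higher and 0 lower on the control diet.

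**Figure D2:**
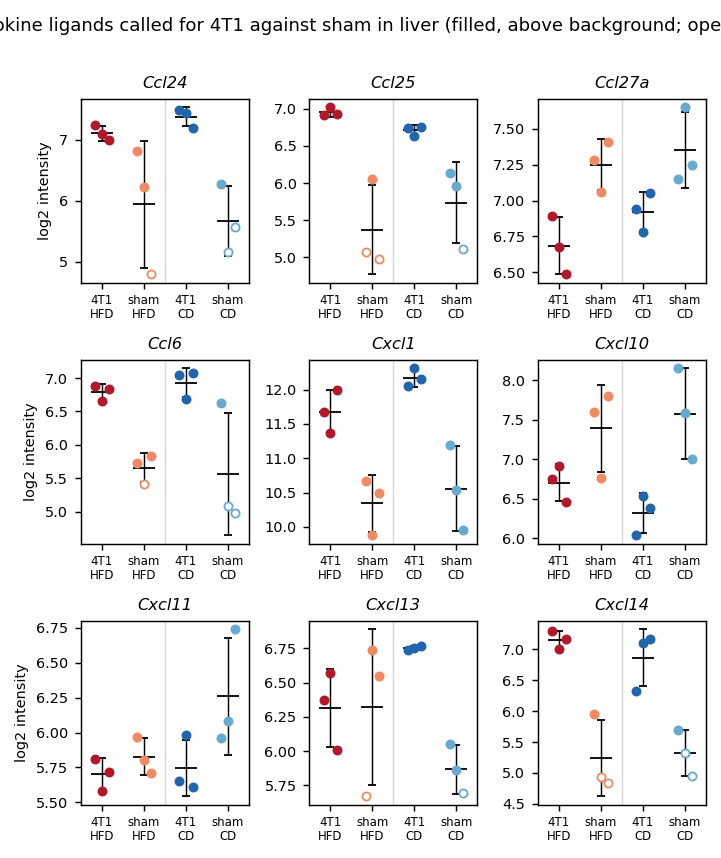
Log2 intensity per array in liver of the 9 ligands called for 4T1 against sham on either diet, with the mean and SD (black) of 3 arrays per group and open circles not above background. Cxcl1, Cxcl14, Ccl24, Ccl6 and Ccl25 lie higher in both 4T1 groups than in their sham groups. Cxcl10 lies lower with 4T1 on the control diet, and its groups overlap on the high-fat diet.

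Among the neutrophil attractants only Cxcl1 was measured in liver. Cxcl1 read 11.67, 11.37 and 11.99 on the 4T1 HFD arrays and 10.67, 9.88 and 10.49 on the sham HFD arrays, a log2 change of 1.33 ± 0.29 (SE, adjusted p = 0.0037). With the control diet the readings were 12.05, 12.31 and 12.15 with 4T1 and 11.19, 10.54 and 9.95 with sham, a change of 1.61 ± 0.29 (adjusted p = 0.00151). No sham array reached the lowest 4T1 array on either diet.

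The 3 Cxcr3 ligands, which interferon induces and which attract activated T cells, had lower means in 4T1 than in sham liver on both diets, and the test called Cxcl10 and Cxcl11, both on the control diet alone. Cxcl10 read 6.04, 6.54 and 6.38 on the 4T1 CD arrays and 8.15, 7.58 and 7 on the sham CD arrays, a change of -1.26 ± 0.31 (adjusted p = 0.00773). The groups did not overlap. With median scaling the change was -0.44 (adjusted p = 0.231), which is -1.1 relative to the median of all genes. On the high-fat diet it read 6.75, 6.91 and 6.46 with 4T1 and 7.6, 6.77 and 7.8 with sham, and these ranges overlapped. Cxcl9 read 9.14, 9.31 and 9.6 on the 4T1 CD arrays and 11.13, 9.69 and 9.99 on the sham CD arrays, a change of -0.92 ± 0.35 that missed the threshold (adjusted p = 0.0544). Cxcl11 changed by -0.52 on the control diet (adjusted p = 0.0421) with overlapping groups, and its change was 0.09 with median scaling. These values come from the probe not annotated to the RefSeq transcript, so whether they read that transcript is uncertain. The Cxcl11 call was lost without any of 7 arrays, namely 4T1 CD replicate 1 or 3, any 4T1 HFD replicate, sham CD replicate 3 or sham HFD replicate 2 (-0.52 to -0.28).

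The 250 bases upstream of the annotated starts of Cxcl1 and Cxcl10 are shown because these ligands moved in opposite directions in 4T1 liver on the control diet while both windows hold matches to the NF-kappaB consensus. The sequences are those of RefSeq on build GRCm38.p6, 5′ to 3′ on the gene's strand, for Cxcl1 chr5:90890995-90891244 (plus strand) and for Cxcl10 chr5:92348890-92349139 (minus strand). Capitals mark the matches, and in Cxcl1 a match on each strand overlaps the other.
Cxcl1: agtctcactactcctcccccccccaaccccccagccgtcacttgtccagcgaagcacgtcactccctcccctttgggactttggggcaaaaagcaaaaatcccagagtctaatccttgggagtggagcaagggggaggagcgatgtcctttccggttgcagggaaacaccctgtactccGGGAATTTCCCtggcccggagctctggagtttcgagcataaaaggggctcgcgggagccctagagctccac
Cxcl10: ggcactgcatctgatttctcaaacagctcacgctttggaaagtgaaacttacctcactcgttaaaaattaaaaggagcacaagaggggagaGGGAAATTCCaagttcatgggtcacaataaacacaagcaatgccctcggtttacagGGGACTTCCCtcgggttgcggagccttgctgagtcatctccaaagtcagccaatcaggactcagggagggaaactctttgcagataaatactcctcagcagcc
Motifs were searched on both strands with overlaps kept, namely the kappaB consensus, the C/EBP motif TTGCNNAA, the STAT motif TTCNNNGAA and the TATA box TATAAA. A promoter entry was found for 25 of the 36 members. The kappaB consensus occurred in 6 of these 25 (Ccl9, Ccl20, Cxcl1, Cxcl2, Cxcl3 and Cxcl10), and in 3.75% of all 27025 promoters of this length. The C/EBP motif was found in 3 of the 25 (9.55% of all), the STAT motif in 2 (7.18%) and the TATA box in 8 (13%). A match describes the letters and was not tested as a binding site.

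Cxcl14, a ligand of epithelium and stroma, read 7.29, 7 and 7.17 on the 4T1 HFD arrays and 5.95, 4.94 and 4.83 on the sham HFD arrays, a change of 1.92 ± 0.31 (adjusted p = 0.000634). It read 6.33, 7.1 and 7.16 on the 4T1 CD arrays and 5.7, 5.32 and 4.95 on the sham CD arrays, a change of 1.54 ± 0.31 (adjusted p = 0.00274). The 4T1 and sham arrays were fully separated. Only 1 of 3 sham arrays was above background on each diet, so the probe passed the filter through the 4T1 arrays and had to read higher there. Its sham level, the size of its change and its place among the higher ligands are therefore a description. A further Cxcl14 probe changed by 2.39 (HFD) and 2.08 (CD). It was above background on 6 of the 12 liver arrays, against 8 for the first probe, so its change is a description too. Cxcl13, the B-cell attractant, was called on the control diet, with 6.74, 6.75 and 6.77 on the 4T1 arrays, and 6.05, 5.86 and 5.69 on the sham arrays (change of 0.89 ± 0.24, adjusted p = 0.0127). On the high-fat diet its groups overlapped, and the difference between the diets in its change was -0.89 ± 0.34 (adjusted p = 0.279). Cxcl16 was not called on either diet, nor was the brightest probe of Cxcl12 (0.24 on the high-fat and 0.01 on the control diet). Both further Cxcl12 probes, annotated to other transcripts of the gene, changed by -0.41 and -0.04 on the high-fat and by -0.83 and -0.46 on the control diet, so the probes of Cxcl12 disagree.

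The eotaxin Ccl24, made by macrophages and an attractant of eosinophils through Ccr3, read 7.49, 7.45 and 7.2 on the 4T1 CD arrays and 6.28, 5.15 and 5.56 on the sham CD arrays, a change of 1.71 ± 0.43 (adjusted p = 0.00826). On the high-fat diet it read 7.24, 7.09 and 7 with 4T1 and 6.82, 6.22 and 4.79 with sham, a change of 1.16 ± 0.43 (adjusted p = 0.0428). The groups were separated on both diets, with a wide spread among sham arrays. Sham CD replicates 2 and 3 and sham HFD replicate 3 were not above background, which limits the size of both changes. The high-fat call was lost without any of 9 arrays, namely any 4T1 replicate of either diet, sham CD replicate 3 or sham HFD replicate 2 or 3, at 0.59 to 1.3. The other eotaxin measured, Ccl11, was not called.

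Of the inflammatory CC ligands of chromosome 11, Ccl6 was called in liver and Ccl4, Ccl5 and Ccl9 were not. Ccl6 read 6.88, 6.66 and 6.84 on the 4T1 HFD arrays and 5.73, 5.41 and 5.83 on the sham HFD arrays, a change of 1.13 ± 0.35 (adjusted p = 0.0197). CD-fed mice gave 7.04, 6.68 and 7.07 with 4T1 and 6.62, 5.09 and 4.98 with sham, a change of 1.37 ± 0.35 (adjusted p = 0.00912). Sham CD replicate 1 stood close under the 4T1 arrays and the other sham CD arrays were not above background. The high-fat call was lost without 4T1 HFD replicate 1 (1.09) or 3 (1.11), or sham HFD replicate 2 (1.01). Ccl9 changed by -0.29 ± 0.13 on the control diet (adjusted p = 0.0829).

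Ccl25, which guides thymocytes and gut-homing T cells through Ccr9, read 6.91, 7.02 and 6.93 on the 4T1 HFD arrays and 5.07, 6.06 and 4.98 on the sham HFD arrays, a change of 1.58 ± 0.29 (adjusted p = 0.00134). The 4T1 CD arrays read 6.74, 6.64 and 6.76 and the sham CD arrays 6.14, 5.96 and 5.11, a change of 0.98 ± 0.29 (adjusted p = 0.0204). The groups did not overlap on either diet, and this probe was above background on 1 of 3 sham HFD and 2 of 3 sham CD arrays. The further Ccl25 probes changed by 0.25 and -0.38 on the high-fat and by 0.24 and 0.3 on the control diet, so the probes of Ccl25 disagree. The control-diet call was lost without 4T1 CD replicate 1 or 3 (0.96 each) or sham CD replicate 3 (0.67). Ccl27a, which attracts skin-homing T cells, changed by -0.56 ± 0.15 on the high-fat diet (adjusted p = 0.011) and by -0.42 ± 0.15 on the control diet (adjusted p = 0.0434), and by 0.45 on each diet with median scaling. The control-diet call of Ccl27a was lost without any of 7 arrays, namely any 4T1 CD replicate, 4T1 HFD replicate 2, sham CD replicate 2 or 3 or sham HFD replicate 1, at -0.49 to -0.28. The Ccr7 ligands Ccl19, Ccl21a and Ccl21c were not called.

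Sham liver arrays varied more than 4T1 liver arrays for these genes. The median SD of the 19 ligands was 0.12 in 4T1 HFD, 0.2 in 4T1 CD, 0.3 in sham HFD and 0.36 in sham CD liver. Sham CD replicate 1 read highest of its group for ligands that included Ccl5, Ccl6, Ccl24, Ccl25, Cxcl1, Cxcl9, Cxcl10, Cxcl13 and Cxcl14.

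Receptors were described from a list of 23 genes, of which 12 were measured in liver. There 6 were higher with 4T1 and 0 lower on each diet. Over all genes 21% (HFD) and 20.5% (CD) were higher and 27.7% and 22.8% lower. With median scaling 9 (HFD) and 10 (CD) receptors were higher and 0 lower, where 8882 and 8444 of 10906 genes were called. Cxcr2, Cxcr4, Cxcr1 and Ccr2 were above background on no sham liver array. They passed the filter through the 4T1 arrays alone and had to read higher there, so their calls are a description. Cxcr2, the receptor of Cxcl1 on neutrophils, averaged 8.86 (HFD) and 8.66 (CD) in 4T1 liver and was not above background in sham liver, which made it at least 9.49-fold (HFD, adjusted p = 1.11e-09) and at least 8.28-fold (CD, adjusted p = 1.8e-09) higher. This bound sets the 4T1 mean against the lowest signal that counted as above background on the sham arrays. Cxcr4, the receptor of Cxcl12, was at least 3.09-fold (HFD) and 2.54-fold (CD) higher and Cxcr1 at least 2.5-fold (HFD) and 2.51-fold (CD). The fractalkine receptor Cx3cr1 rose by 0.94 (HFD) and 0.84 (CD). Ccr2 was at least 1.33-fold (HFD) and 1.36-fold (CD) higher, while its ligands Ccl2, Ccl7, Ccl8 and Ccl12 were not measured in liver. Of 16 cytokines known to induce chemokines, 10 were measured in liver, and 4 were higher and 2 lower with 4T1 on the high-fat diet and 3 higher and 2 lower on the control diet. Il1b rose by 1.66 (HFD) and 1.75 (CD) on the log2 scale, and Osm was at least 2.49-fold (HFD) and 2.43-fold (CD) higher. Osm too passed the filter through the 4T1 arrays alone.

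Many markers of myeloid cells, platelets and stroma were higher in 4T1 liver, where ligands were called in both directions. All 8 measured neutrophil markers of 10 were higher in 4T1 liver on each diet, and their summed intensity was 73441 to 83483 in 4T1 HFD, 64948 to 73594 in 4T1 CD, 445 to 661 in sham HFD and 416 to 439 in sham CD liver. Ly6g and Mmp8 were not measured, and Cxcr2 is itself on the list. All 5 measured eosinophil and basophil markers of 6 were higher, with sums of 3895 to 5710 in 4T1 HFD, 4374 to 5243 in 4T1 CD, 154 to 173 in sham HFD and 163 to 240 in sham CD liver. Of 7 measured Kupffer cell and macrophage markers of 10, 5 (HFD) and 6 (CD) were higher, with sums of 10429 to 11028 in 4T1 HFD, 10970 to 12604 in 4T1 CD, 7509 to 8336 in sham HFD and 7298 to 7814 in sham CD liver. Of 5 measured monocyte markers of 6, 4 were higher on each diet, with sums of 14008 to 18027 in 4T1 HFD, 11345 to 12980 in 4T1 CD, 9468 to 12392 in sham HFD and 10469 to 10624 in sham CD liver. Of 6 measured platelet markers of 7, 4 were higher on each diet, with sums of 519 to 741 in 4T1 HFD, 621 to 790 in 4T1 CD, 218 to 252 in sham HFD and 212 to 263 in sham CD liver. Of 6 fibroblast and stroma markers, 4 (HFD) and 3 (CD) were higher, with sums of 18286 to 18907 in 4T1 HFD, 18101 to 19238 in 4T1 CD, 10354 to 11949 in sham HFD and 11347 to 12173 in sham CD liver. Cd5l, Cd68, Siglecf, Ly6c2 and Gp6 were among those not measured. In sham liver the mean log2 level was 5.37 to 5.79 for neutrophil, 4.93 to 5.53 for eosinophil and basophil and 5.04 to 5.3 for platelet markers. At such levels several ligand probes were not above background. Cxcr2 and Ppbp of these lists passed the filter through the 4T1 arrays alone. Any marker that did so had to read higher there, so the counts and sums of these 3 lists are a description. Of 10 T and NK cell markers 4 were measured in liver. Their sums were 321 to 416 (4T1 HFD), 343 to 362 (4T1 CD), 244 to 291 (sham HFD) and 263 to 330 (sham CD). Sums of the 8 hepatocyte markers were 233559 to 238697 (4T1 HFD), 225209 to 229030 (4T1 CD), 194482 to 213155 (sham HFD) and 200217 to 214077 (sham CD). Of 6 B cell markers 1 was measured. The part of these cells in the ligand changes was not tested.

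In lung, the 4T1 arrays read higher for the macrophage inflammatory ligands Ccl3, Ccl4, Ccl6 and Ccl9 and lower for the T-cell attractant Ccl5 and for Ccl21c, Ccl27a, Cx3cl1 and Cxcl12, on both diets. On the high-fat diet 6 of the 28 measured ligands were higher (21.4%, against 22.6% of all 12747 genes) and 9 lower (32.1%, against 31.3%). On the control diet 4 were higher (14.3%, against 20.6%) and 9 lower (32.1%, against 32.2%). These shares lay near or below those of all genes. The median log2 change was -0.06 on each diet for the ligands, and -0.08 (HFD) and -0.09 (CD) for all genes. The calls of 4 higher and 8 lower ligands were shared by the diets, and the sign was the same for 21 of the 28. Among the shared lower ligands, Ccl20 passed the filter through sham arrays alone. With median scaling 4 were higher and 16 lower on each diet.

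**Figure D3:**
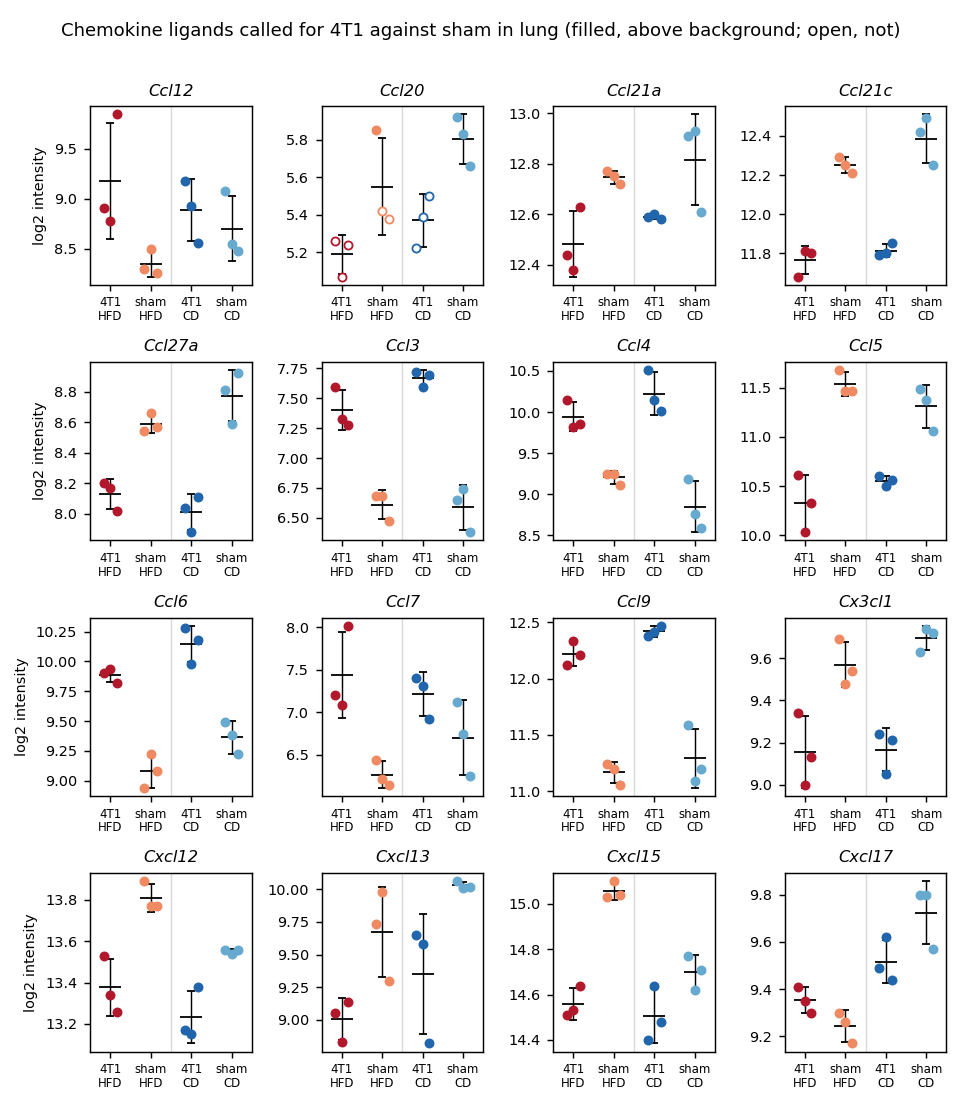
Log2 intensity per array in lung of the 16 ligands called for 4T1 against sham on either diet, with the mean and SD (black) of 3 arrays per group and open circles not above background. Ccl3, Ccl4, Ccl6 and Ccl9 lie higher in both 4T1 groups, whereas Ccl5, Ccl21c, Ccl27a and Cx3cl1 lie lower.

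Of the 5 neighbouring inflammatory CC ligand genes of chromosome 11 (Ccl3, Ccl4, Ccl5, Ccl6 and Ccl9), 4 rose and 1 fell in 4T1 lung on each diet. Ccl3, an attractant of monocytes and a product of activated macrophages and neutrophils, read 7.59, 7.33 and 7.28 on the 4T1 HFD arrays and 6.68, 6.68 and 6.47 on the sham HFD arrays, a change of 0.79 ± 0.11 (adjusted p = 0.000145). With the control diet the readings were 7.72, 7.59 and 7.69 with 4T1 and 6.65, 6.74 and 6.38 with sham, a change of 1.08 ± 0.11 (adjusted p = 1.7e-05). Every 4T1 array of Ccl3 stood above every sham array. Ccl4, an attractant of monocytes and T cells, read 10.15, 9.82 and 9.86 on the 4T1 HFD arrays and 9.25, 9.25 and 9.11 on the sham HFD arrays, a change of 0.74 ± 0.16 (adjusted p = 0.00308) that was 0.26 with median scaling (adjusted p = 0.17). CD-fed mice gave 10.51, 10.15 and 10.01 with 4T1 and 9.19, 8.76 and 8.59 with sham, a change of 1.38 ± 0.16 (adjusted p = 5.66e-05). Groups were separated on both diets, and a further Ccl4 probe changed by 0.88 (HFD) and 1.08 (CD).

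The rodent ligand Ccl9 read 12.12, 12.33 and 12.21 on the 4T1 HFD arrays and 11.24, 11.2 and 11.06 on the sham HFD arrays, a change of 1.05 ± 0.11 (adjusted p = 2.47e-05). The 4T1 CD arrays read 12.38, 12.41 and 12.47 and the sham CD arrays 11.59, 11.09 and 11.2, a change of 1.13 ± 0.11 (adjusted p = 1.67e-05). Sham and 4T1 arrays did not meet. Ccl6, a close relative of Ccl9 made by myeloid cells, read 9.9, 9.94 and 9.82 on the 4T1 HFD arrays and 8.94, 9.22 and 9.08 on the sham HFD arrays, a change of 0.81 ± 0.1 (adjusted p = 6.29e-05). With the control diet the readings were 10.28, 9.98 and 10.18 with 4T1 and 9.49, 9.38 and 9.22 with sham, a change of 0.78 ± 0.1 (adjusted p = 9.07e-05). Ccl6 was thus higher with 4T1 in both organs, without overlap.

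Ccl5, which T cells and natural killer cells release, moved the other way although its gene is the neighbour of Ccl9. It read 10.61, 10.03 and 10.33 on the 4T1 HFD arrays and 11.68, 11.47 and 11.47 on the sham HFD arrays, a change of -1.22 ± 0.14 (adjusted p = 4.51e-05). CD-fed mice gave 10.6, 10.5 and 10.56 with 4T1 and 11.49, 11.38 and 11.06 with sham, a change of -0.76 ± 0.14 (adjusted p = 0.00124). All 4T1 arrays were below all sham arrays. Beside this, of 6 measured T and NK cell markers of 10, 1 was higher and 3 lower on the high-fat diet, and 1 higher and 1 lower on the control diet. Their summed intensity was 5610 to 5738 in 4T1 HFD and 5196 to 5807 in sham HFD lung, and 6171 to 6430 in 4T1 CD and 4176 to 5327 in sham CD lung. Cd8a, Gzma, Ncr1 and Trac were not measured.

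The upstream windows of Ccl9, Ccl6 and Ccl3 are shown because these chromosome 11 neighbours rose together in lung. They are RefSeq sequences on build GRCm38.p6, all on the minus strand, at chr11:83578637-83578886 for Ccl9, chr11:83593088-83593337 for Ccl6 and chr11:83649379-83649628 for Ccl3. Capitals mark the matches to the kappaB consensus and the TATA box.
Ccl9: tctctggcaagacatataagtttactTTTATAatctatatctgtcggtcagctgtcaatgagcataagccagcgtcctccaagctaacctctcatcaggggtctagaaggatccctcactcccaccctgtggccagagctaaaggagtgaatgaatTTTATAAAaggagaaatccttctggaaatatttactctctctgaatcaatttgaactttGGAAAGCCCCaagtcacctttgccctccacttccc
Ccl6: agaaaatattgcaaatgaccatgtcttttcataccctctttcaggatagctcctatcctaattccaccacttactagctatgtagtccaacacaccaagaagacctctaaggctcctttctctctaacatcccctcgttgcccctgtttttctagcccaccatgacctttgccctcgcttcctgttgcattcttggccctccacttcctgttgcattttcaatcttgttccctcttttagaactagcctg
Ccl3: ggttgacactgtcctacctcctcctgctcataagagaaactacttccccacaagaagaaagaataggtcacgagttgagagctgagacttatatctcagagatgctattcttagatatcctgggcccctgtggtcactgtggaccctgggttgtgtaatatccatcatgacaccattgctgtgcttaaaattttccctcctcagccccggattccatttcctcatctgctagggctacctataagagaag
The Ccl9 window held 1 kappaB match and 3 TATA box matches, 2 of which overlap on opposite strands. The windows of Ccl6 and Ccl3 held none of the 4 motifs in these letters.

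The Ccr2 ligands attract classical monocytes, and 3 of the 4 were measured in lung. Ccl7 read 7.2, 7.09 and 8.02 on the 4T1 HFD arrays and 6.44, 6.22 and 6.14 on the sham HFD arrays, a change of 1.17 ± 0.26 (adjusted p = 0.00331) with no overlap. A further Ccl7 probe changed by -0.49, and with probes averaged the change was 0.34 (adjusted p = 0.337). Ccl12 read 8.91, 8.78 and 9.84 on the 4T1 HFD arrays and 8.3, 8.5 and 8.26 on the sham HFD arrays, a change of 0.82 ± 0.27 (adjusted p = 0.0227), and 0.32 with median scaling (adjusted p = 0.264). Replicate 3 of 4T1 HFD was the highest array for both genes. Without it Ccl12 changed by 0.49 and lost the call, as it did without sham HFD replicate 1 (0.80) or 3 (0.78). On the control diet Ccl7 (0.51) and Ccl12 (0.19) were not called, and Ccl8 was not called on either diet. The difference between the diets in the injection change was 0.66 ± 0.37 for Ccl7 (adjusted p = 0.506) and 0.64 ± 0.38 for Ccl12 (adjusted p = 0.525).

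Of the 3 Ccr7 ligands, 2 were lower in 4T1 lung on the high-fat diet and 1 on the control diet, and Ccl19 was not called on either. Ccl21c read 11.68, 11.81 and 11.8 on the 4T1 HFD arrays and 12.29, 12.25 and 12.21 on the sham HFD arrays, a change of -0.49 ± 0.07 (adjusted p = 0.000156). The 4T1 CD arrays read 11.79, 11.8 and 11.85 and the sham CD arrays 12.42, 12.49 and 12.25, a change of -0.57 ± 0.07 (adjusted p = 5.72e-05). The groups were separated for this probe, and a further Ccl21c probe changed by -0.27 (HFD) and -0.22 (CD). The probe of Ccl21a changed by -0.26 ± 0.09 on the high-fat diet (adjusted p = 0.0276) and -0.23 ± 0.09 on the control diet (adjusted p = 0.0511). The Ccl21a call was lost without 4T1 HFD replicate 1 or 2 or any sham HFD replicate, at -0.28 to -0.21. Of 4 lymphatic endothelial markers 2 (HFD) and 4 (CD) were lower, with sums of 14425 to 17067 in 4T1 HFD and 20197 to 22150 in sham HFD lung, and 15775 to 16569 in 4T1 CD and 21324 to 21664 in sham CD lung. Their part in the Ccl21 values was not tested.

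Cx3cl1, the ligand of Cx3cr1 on monocytes and natural killer cells, read 9.34, 9 and 9.13 on the 4T1 HFD arrays and 9.69, 9.48 and 9.54 on the sham HFD arrays, a change of -0.42 ± 0.09 (adjusted p = 0.00319). With the control diet the readings were 9.24, 9.05 and 9.21 with 4T1 and 9.63, 9.74 and 9.72 with sham, a change of -0.53 ± 0.09 (adjusted p = 0.000809). Cxcl12, the stromal ligand that retains neutrophils and progenitors in bone marrow through Cxcr4, changed by -0.43 ± 0.08 on the high-fat diet (adjusted p = 0.00119) and -0.32 ± 0.08 on the control diet (adjusted p = 0.0076). Both genes were lower on every 4T1 array than on every sham array of the same diet, while further Cxcl12 probes changed by -0.11 and -0.14 on the high-fat and by -0.42 and -0.15 on the control diet. Of 6 vascular endothelial markers 2 were lower on each diet, with sums of 58832 to 65232 in 4T1 HFD, 58302 to 64280 in 4T1 CD, 70480 to 72336 in sham HFD and 69455 to 74459 in sham CD lung. Of 6 fibroblast and stroma markers 4 were lower on each diet, with sums of 20028 to 20701 in 4T1 HFD, 20712 to 22803 in 4T1 CD, 28683 to 29743 in sham HFD and 27689 to 31558 in sham CD lung. Their part in the Cx3cl1 and Cxcl12 values was not tested. Cxcl13 changed by -0.66 ± 0.22 on the high-fat diet (adjusted p = 0.0238) and -0.68 ± 0.22 on the control diet (adjusted p = 0.0211). The Cxcl13 calls were lost without 4T1 HFD replicate 2 (-0.57) or sham HFD replicate 1 (-0.63) or 2 (-0.50), and without 4T1 CD replicate 3 (-0.42) or sham CD replicate 1 (-0.67).

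Among ligands of epithelium, Ccl27a read 8.2, 8.17 and 8.02 on the 4T1 HFD arrays and 8.54, 8.66 and 8.57 on the sham HFD arrays, a change of -0.46 ± 0.09 (adjusted p = 0.00171). CD-fed mice gave 8.04, 7.88 and 8.11 with 4T1 and 8.81, 8.59 and 8.92 with sham, a change of -0.77 ± 0.09 (adjusted p = 5.89e-05). Here too the groups were apart, but a further Ccl27a probe changed by -0.13 (HFD) and -0.27 (CD). Cxcl15 (lungkine), a neutrophil attractant of mouse lung epithelium, read 14.51, 14.53 and 14.64 on the 4T1 HFD arrays and 15.03, 15.1 and 15.04 on the sham HFD arrays, a change of -0.49 ± 0.07 (adjusted p = 0.000212). On the control diet Cxcl15 changed by -0.2 ± 0.07 (adjusted p = 0.041) and the mucosal ligand Cxcl17 by -0.2 ± 0.08 (adjusted p = 0.0464), with overlapping groups. The control-diet call of Cxcl15 was lost without any of 8 arrays, namely 4T1 CD replicate 1 or 3, 4T1 HFD replicate 2, sham CD replicate 1 or 3 or any sham HFD replicate (-0.2 to -0.14), and that of Cxcl17 without any of 10 arrays, which are all but 4T1 CD replicate 2 and sham CD replicate 3 (-0.2 to -0.16). Ccl20, which attracts Ccr6-bearing cells, was not above background on any 4T1 lung array, and was above it on 1 of 3 sham HFD and 3 of 3 sham CD arrays. The Ccl20 probe thus passed the filter through sham arrays alone and had to read lower with 4T1. Its change and its place among the lower ligands are therefore a description. Its calls (adjusted p = 0.0349 on the high-fat and 0.0162 on the control diet) were lost without 4T1 HFD replicate 2 or 3 or sham HFD replicate 1, and without 4T1 CD replicate 1 or sham CD replicate 1 (-0.38 to -0.21 and -0.37 to -0.35). Of 8 alveolar epithelial markers 8 (HFD) and 7 (CD) were lower, with sums of 143808 to 152645 in 4T1 HFD and 197032 to 209667 in sham HFD lung, and 158497 to 162224 in 4T1 CD and 192958 to 203848 in sham CD lung. Of 5 airway epithelial markers 4 were measured in lung. Their sums were 126770 to 130162 in 4T1 HFD and 133311 to 134356 in sham HFD lung. On the control diet these sums were 130121 to 132069 with 4T1 and 130481 to 135667 with sham. The part of alveolar and airway cells in the epithelial ligand values was not tested.

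The Cxcr3 ligands of lung varied between arrays. Cxcl10 read 7.81, 7.94 and 8.54 on the 4T1 HFD arrays and 7.45, 7.76 and 6.46 on the sham HFD arrays, a change of 0.87 ± 0.37 that missed the threshold (adjusted p = 0.0686). Cxcl9, Cxcl1, Cxcl14, Cxcl16, Ccl11, Ccl17, Ccl19, Ccl24, Ccl25 and Xcl1 were not called for injection in lung on either diet.

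**Figure D4:**
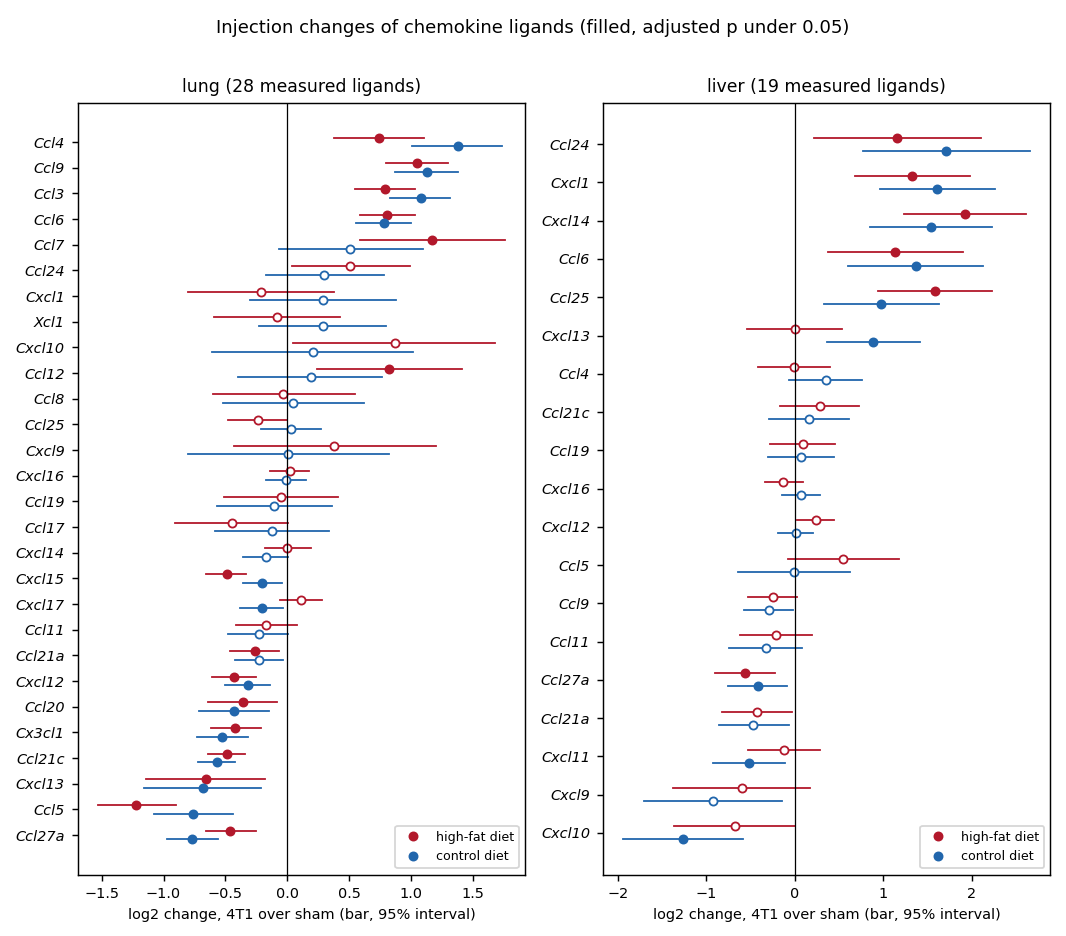
Log2 change of 4T1 over sham with its 95% interval for the 28 ligands measured in lung (left) and the 19 in liver (right), high-fat diet in red above control diet in blue, filled where the adjusted p was under 0.05. The lung list is led by Ccl4, Ccl9, Ccl3 and Ccl6 and ends with Ccl27a and Ccl5, and the liver list runs from Ccl24 to Cxcl10.

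Of the receptor list 16 were measured in lung, and 5 were higher and 4 lower with 4T1 on each diet. Over all genes 22.6% (HFD) and 20.6% (CD) were higher and 31.3% and 32.2% lower. With median scaling 3 receptors were higher and 9 (HFD) or 7 (CD) lower. Cxcr2 averaged 12.95 in 4T1 HFD and 8.76 in sham HFD lung (change of 4.18, adjusted p = 8.58e-11), and 13 in 4T1 CD and 8.07 in sham CD lung (4.93, adjusted p = 2.25e-11). Cxcr1 rose by 3.85 (HFD) and 3.88 (CD), the monocyte receptor Ccr2 by 2.24 (HFD) and 2.33 (CD) and Cx3cr1 by 0.65 (HFD) and 0.61 (CD). The Cxcr3 receptor itself changed by -0.03 (HFD) and 0.18 (CD) and was not called. Of the cytokine list 11 were measured, and 6 were higher and 2 lower on each diet. Il1b rose by 3.39 (HFD) and 3.95 (CD), Osm by 3.13 (HFD) and 3.38 (CD) and Tnf by 1.29 (HFD) and 1.72 (CD).

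Other ligands of this kind with different symbols went their own way in each organ. The platelet ligand Ppbp was at least 4.46-fold (HFD) and 5.98-fold (CD) higher in 4T1 liver, where it passed the filter through the 4T1 arrays alone. In lung Ppbp changed by -0.49 (HFD, adjusted p = 0.00126) and -0.09 (CD, adjusted p = 0.462). Pf4 rose in 4T1 liver by 1.06 (HFD, adjusted p = 0.00693) and was at least 2.25-fold higher on the control diet, and in lung it changed by -1.47 (HFD) and -1.01 (CD). Cklf rose in both organs, by 1.16 (HFD) and 1.1 (CD) in lung and by 1.01 (HFD) and 0.85 (CD) in liver. Both Ppbp and Pf4 are also on the platelet marker list.

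Many neutrophil, eosinophil and basophil, and monocyte markers were higher in 4T1 lung, where ligands were called in both directions. All 8 measured neutrophil markers of 10 were higher on each diet, with sums of 278226 to 299572 in 4T1 HFD, 285850 to 295595 in 4T1 CD, 23656 to 27818 in sham HFD and 19279 to 21300 in sham CD lung. All 5 measured eosinophil and basophil markers of 6 were higher on each diet, with sums of 12030 to 16143 in 4T1 HFD, 12204 to 24315 in 4T1 CD, 325 to 401 in sham HFD and 316 to 338 in sham CD lung. Of 5 measured monocyte markers of 6, 3 were higher on each diet, with sums of 21648 to 22361 in 4T1 HFD, 21646 to 23099 in 4T1 CD, 13964 to 17000 in sham HFD and 13154 to 16106 in sham CD lung. Of 7 measured macrophage markers of 10, 1 was higher and 2 lower on the high-fat diet and 0 higher and 2 lower on the control diet, with sums of 2278 to 2503 in 4T1 HFD, 2227 to 2481 in 4T1 CD, 2422 to 2550 in sham HFD and 2228 to 2354 in sham CD lung. Ly6g, Mmp8, Ly6c2, Cd5l and Cd68 were among those not measured, and the part of these cells in the ligand changes was not tested.

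The high-fat diet went with few ligand changes. In sham lung 1 of 28 ligands was higher on the high-fat than on the control diet (0.965% of all genes were) and 1 was lower (0.706%). Cxcl15 read 15.03, 15.1 and 15.04 on the sham HFD arrays and 14.77, 14.62 and 14.71 on the sham CD arrays, a change of 0.35 ± 0.07 (adjusted p = 0.0388). Cxcl17 read 9.3, 9.26 and 9.17 on the sham HFD arrays and 9.8, 9.8 and 9.57 on the sham CD arrays, a change of -0.48 ± 0.08 (adjusted p = 0.0162), with -0.41 for a further probe. The HFD and CD arrays were separated for both genes. The calls were fragile, that of Cxcl15 being lost without any sham replicate of either diet, 4T1 CD replicate 3 or 4T1 HFD replicate 2 (0.31 to 0.39), and that of Cxcl17 without sham CD replicate 1 or 2 or any sham HFD replicate (-0.51 to -0.44). With only the sham arrays in the fit neither was called (adjusted p = 0.0542 for Cxcl15 and 0.0532 for Cxcl17).

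In 4T1 lung 0 of 28 ligands were called for diet by limma, and 0% of all genes were called higher and 0% lower. The monocyte attractant Ccl8 read 8.48, 8.09 and 8.33 on the 4T1 HFD arrays and 9.6, 9.66 and 8.62 on the 4T1 CD arrays, a change of -0.99 ± 0.26 (adjusted p = 0.238). In sham lung it read 8.43, 8.56 and 8 on the HFD arrays and 9.49, 9.23 and 9.01 on the CD arrays, a change of -0.92 ± 0.26 (adjusted p = 0.111). HFD and CD arrays of Ccl8 did not overlap in either injection, though neither difference passed the threshold. Ccl17 changed by -0.73 ± 0.21 in 4T1 lung (adjusted p = 0.272) and Ccl11 by -0.41 ± 0.11 in sham lung (adjusted p = 0.103). The median change of the 28 was -0.17 in 4T1 and -0.14 in sham lung, and 0 for all genes.

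In liver 0 of 19 ligands were called for diet by limma in 4T1 mice or in sham mice, where 0.138% and 6.02% of all genes were higher and 0.165% and 5.13% lower. The median change of the ligands was -0.04 in 4T1 and -0.1 in sham liver. The interaction of diet and injection was called by limma for 0 ligands in lung, with 0.0157% of all genes higher and 0.0706% lower. It was called for 0 in liver, with 0.486% and 0.458%. Leaving out sham CD replicate 1 or sham HFD replicate 1 gave 1 call for diet in sham liver, and leaving out sham HFD replicate 1 gave 1 for the liver interaction.

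The injection change in lung was then set against that in liver. With the diets averaged, the change in lung minus that in liver was positive for 4 of the 18 (29.7% of all genes) and negative for 8 (30.8%), so that 12 of 18 ligands were called where 6274 of 10366 genes were, a share near that of all genes. The median was -0.36 over the ligands and -0.02 over all genes. Ccl9 stood at 1.43 ± 0.12 (SE, adjusted p = 1.2e-08), Cxcl10 at 1.41 ± 0.35 (adjusted p = 0.00172), Ccl4 at 0.95 ± 0.18 (adjusted p = 0.000193) and Cxcl9 at 0.89 ± 0.38 (adjusted p = 0.0497). Cxcl14 stood at -2.22 ± 0.37 (adjusted p = 4.26e-05), Ccl25 at -1.66 ± 0.36 (adjusted p = 0.000578), Ccl5 at -1.31 ± 0.23 (adjusted p = 9e-05) and Cxcl1 at -1.23 ± 0.29 (adjusted p = 0.00119). The changes of Cxcl1 and Cxcl14 were thus more positive in liver, and those of Ccl9 and Ccl4 more positive in lung. The liver probes of Ccl25 disagree, and its value here is that of 1 probe. With median scaling Ccl4 read -0.49 and Cxcl9 -0.37, where the median of all genes was -1.19 and 2.7% of called genes were positive in place of 49.1%. With that scaling Ccl9 (0.24, adjusted p = 0.0965) and Cxcl10 (0.10, adjusted p = 0.799) were not called. Cxcl12 stood at -0.53 ± 0.08 (adjusted p = 2.44e-05), and at -0.06 with probes averaged (adjusted p = 0.505). Cxcl9 lost its call without any of 16 arrays (0.7 to 0.91), which are all but liver 4T1 CD replicate 3, liver sham CD replicates 2 and 3, liver sham HFD replicate 2, lung 4T1 CD replicate 3, lung 4T1 HFD replicate 2, lung sham CD replicate 1 and lung sham HFD replicate 2.

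**Figure D5:**
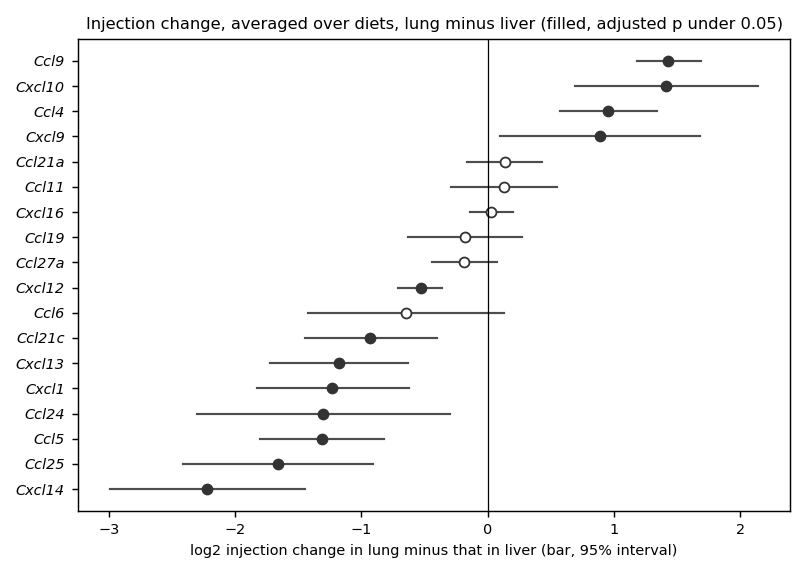
Log2 injection change in lung minus that in liver, averaged over diets, with its 95% interval for the 18 ligands measured in both tissues, filled where the adjusted p was under 0.05. Ccl9 and Cxcl10 lie farthest to the lung side and Cxcl14 and Ccl25 farthest to the liver side.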

How the data were processed

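Biotinylated cRNA made from 0.55 µg of total RNA was read on bead arrays with GenomeStudio 2009.2, per the submitters' processing notes and the labels. The deposited file of all arrays held a summarised intensity per probe, which the authors had not normalized, and a detection p-value. The authors' second deposited table held log2 values, which matched quantile-normalized log2 signals within 0.01 for 99.9997% of probe and array pairs. No raw background signals of negative control probes were used, so the background was estimated from the detection p-values (limma 3.58.1 neqc, offset 16, R 4.3.3), then arrays were quantile-normalized within a tissue, or over all 24 where tissues were compared. Probes with 1 gene symbol (34885) and detection p under 0.05 on at least 3 of a tissue's 12 arrays were kept, and the brightest probe stood for a gene. Comparisons of tissues used genes kept in both, a filter set after first results were seen. limma's lmFit and eBayes were fitted to 4 (or 8) group means over all genes, with Benjamini-Hochberg adjusted p under 0.05, and the steps were tested on simulated data. The members and gene lists were chosen with earlier results of these data known. Each member called in a comparison could be named with its values, and from the other lists up to 4 called genes by size plus receptors of named ligands. Nothing in the labels says that the 3 arrays of a group came from separate mice, so p-values measure the spread between these arrays alone, and the number of arrays limits the precision. Alternatives were median scaling, the deposited log2 values, other detection filters, averaged probes, array weights, fits of only the groups compared, a replicate block and each array left out.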

Additional observations from a re-analysis of the deposited data

Results flagged for a closer look

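For 12 of the 18 ligands measured in both tissues, limma's direct test of the lung minus liver contrast found unequal injection changes, taken as the mean of both diets. Over all genes 6274 of 10366 were called in this contrast, so the share of ligands was near that of all genes. The lung minus liver value was 1.43 for Ccl9, 1.41 for Cxcl10, 0.95 for Ccl4 and 0.89 for Cxcl9. It was -2.22 for Cxcl14, -1.66 for Ccl25, -1.31 for Ccl5, -1.3 for Ccl24, -1.23 for Cxcl1, -1.18 for Cxcl13, -0.93 for Ccl21c and -0.53 for Cxcl12, which read -0.06 with probes averaged (adjusted p = 0.505). Cxcl14 passed the detection filter in liver through its 4T1 arrays, and the liver probes of Ccl25 disagree. Some sham liver arrays of Ccl24 were not above background. Neutrophil markers rose in both organs, and the share of probes above background went up with 4T1 in liver and down in lung, and the part of either in these differences was not tested. No group could be examined for a single outlying array, since each held 3.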

How the results depend on the processing

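Of 71 called ligand results, 44 kept direction and call under every alternative and every left-out array, 50 kept both under every alternative other than left-out arrays, and 64 kept their direction throughout. Median scaling gave 16 called ligands in liver for injection on the high-fat and 14 on the control diet, 20 in lung on the control diet and 1 for diet in sham lung. With it the change was 0.45 for Ccl27a in liver on each diet and 0.09 for Cxcl11 in liver on the control diet. The lung minus liver value was then -0.49 for Ccl4 and -0.37 for Cxcl9, and the lung against liver difference in sham mice 0.46 for Cxcl10 and 0.06 for Cxcl12. In the deposited log2 values these last 2 read 0.10 and 0.12. The shift of all genes under median scaling is in the scaling itself, and why the organs shift oppositely was not tested. For diet in sham lung, no detection filter gave 1 call, the replicate block 1 and only the groups compared 0. For lung against liver in sham mice, no detection filter gave 23 of 36 ligands and detection on 3 of the 24 arrays, chosen after seeing the data, 22 of 29, as more genes were tested.

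With single arrays left out, calls for injection ranged from 4 to 8 in liver on the high-fat diet, 6 to 10 in liver on the control diet, 11 to 17 in lung on the high-fat diet and 9 to 15 in lung on the control diet. They ranged from 0 to 1 for diet in sham liver and for the liver interaction, from 0 to 2 for diet in sham lung, from 11 to 12 for lung minus liver and from 13 to 15 for lung against liver, and stayed at 0 for diet in 4T1 liver, diet in 4T1 lung and the lung interaction. The labels do not say whether replicate numbers pair the samples. Deviations of same-numbered arrays correlated at -0.184 to 0.291, and no comparison had all pairs over 0.1. With so few arrays per group, these correlations cannot decide whether same-numbered arrays were paired. With the replicate block 67 of the 71 calls were kept, and those of Ccl27a and Cxcl11 in liver on the control diet and of Cxcl15 in lung (injection on the control diet, and diet in sham mice) were lost. Several liver ligands lay near background on sham arrays, which limits their fold changes.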
